A study of Mus musculus with 6 samples.

Results

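The unfolded protein response and the protein folding machinery of the endoplasmic reticulum (ER) were followed through 32 genes of 15445 in a count table of mouse CD4+ T cells. The genes were listed by function and matched by symbol, with earlier results of these data known. They cover the stress sensors with the transcription factor Xbp1, the ER chaperones with their co-factors, the disulfide isomerases, ER-associated degradation, and translocation with signal peptide cleavage. All 32 passed the filter on low counts and were tested.

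RNA sequencing compared 3 CD25-high libraries with 3 CD25-low libraries. CD25 is the alpha chain of the interleukin-2 (IL-2) receptor, and Il2ra encodes it. In both groups the cells were TCR-transgenic CD4+ T cells of 1 specificity, on a C57BL/6 background, sorted from spleen on CD4, Thy1.1 and CD25 on day 5 of infection with LCMV, the lymphocytic choriomeningitis virus. The sources used here do not give the transgene, the hosts, the age of the mice or any pooling of animals. Nor do they say whether each library is a separate animal, so the spread that p-values measure is that of these libraries and may be technical. The comparison addresses whether antiviral T cells with much or little CD25 hold different amounts of transcripts for ER folding and secretion.

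Secreted and membrane proteins, cytokines among them, fold in the ER. When unfolded proteins accumulate there, the sensors IRE1 (encoded by Ern1), PERK (Eif2ak3) and ATF6 are activated. IRE1 cuts a short segment out of the Xbp1 message, and the spliced message encodes the active factor XBP1s. ATF6 is cleaved in the Golgi to release its own transcription factor, and PERK slows translation. ATF6 and XBP1s raise chaperone and degradation genes, in part through ER stress elements in their promoters. Xbp1 is best known in lymphocytes for its part in plasma cell secretion, where it acts downstream of Blimp-1 (encoded by Prdm1), and it is listed among genes that IL-2 and STAT5 raise.

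The segment that IRE1 removes is shown because counts per gene cannot tell the spliced from the unspliced message. It lies in exon 4 of the 5 exons of the main Xbp1 transcript, at chr11:5524279-5524304 on the plus strand (GRCm38), and is printed in capitals with 30 bases on either side (chr11:5524249-5524334), as DNA letters of the annotated transcript.
Xbp1: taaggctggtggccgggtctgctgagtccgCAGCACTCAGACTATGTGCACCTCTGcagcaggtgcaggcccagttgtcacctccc
The segment is 26 bases long, so its removal shifts the reading frame. It was present in 3 of the 4 annotated Xbp1 transcripts, and every Xbp1 value given here is the sum of both forms.

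Promoter windows from RefSeq (GRCm38.p6), from 250 bases before to 50 bases after each annotated start, were found for 26 of the 32 genes. Atf6, Hyou1, Manf, Derl1, Sec61a1 and Sec11c had no entry. The classical ER stress element (ERSE, CCAAT and CCACG with 9 bases of any kind between them, searched on both strands) was present in the windows of 8 of these 26 genes, which is 30.8%, and in 37 of 27025 genes with a window, which is 0.137%. The genes were listed for their part in a response known to act through this element. The higher share among them follows from that choice and is not read as a finding. The 8 genes are shown with each element and 10 bases on either side, written along the gene's own strand. Capitals mark the fixed letters, and an element on the opposite strand reads CGTGG before ATTGG.
Hsp90b1 (chr10:86705628-86705666, minus strand): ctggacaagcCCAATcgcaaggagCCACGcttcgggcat
Hsp90b1 (chr10:86705523-86705561, minus strand): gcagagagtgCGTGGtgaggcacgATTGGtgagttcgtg
Hspa5 (chr2:34772015-34772053, plus strand): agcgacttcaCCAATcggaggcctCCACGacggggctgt
Canx (chr11:50325790-50325828, minus strand): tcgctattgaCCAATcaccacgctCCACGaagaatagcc
Creld2 (chr15:88819510-88819548, plus strand): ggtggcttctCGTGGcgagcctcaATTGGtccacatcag
Calr (chr8:84847065-84847103, minus strand): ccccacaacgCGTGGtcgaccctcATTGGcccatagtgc
Dnajc3 (chr14:118937817-118937855, plus strand): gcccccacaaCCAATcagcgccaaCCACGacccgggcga
Pdia6 (chr12:17266481-17266519, plus strand): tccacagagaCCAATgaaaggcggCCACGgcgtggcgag
Syvn1 (chr19:6046522-6046560, plus strand): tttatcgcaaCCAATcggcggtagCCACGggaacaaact
The fixed letters recur because the search required them, while the spacer letters were left free and differ between genes. The Hsp90b1 window held 2 elements, on opposite strands. The related ERSE-II (ATTGG and CCACG with 1 base of any kind between them, both strands) was present in the windows of Dnajb11 and Herpud1, and in 12 of all 27025 genes. Its letters CCACG are shared with the ERSE. CCAAT and CCACG alone, on either strand, were each present in 80.8% of the windows of the 26 genes, against 41.1% and 35.5% of all genes with a window. TGACGTGG, the letters of the UPR element, was found in 0 of the 26 windows and in 0.714% of all genes. TTCNNNGAA, the core letters bound by STAT proteins and the same on both strands, was found in the Eif2ak3 window only, and in 9.55% of all genes. These matches describe letters in a window and do not show that a factor binds there.

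**Figure D1:**
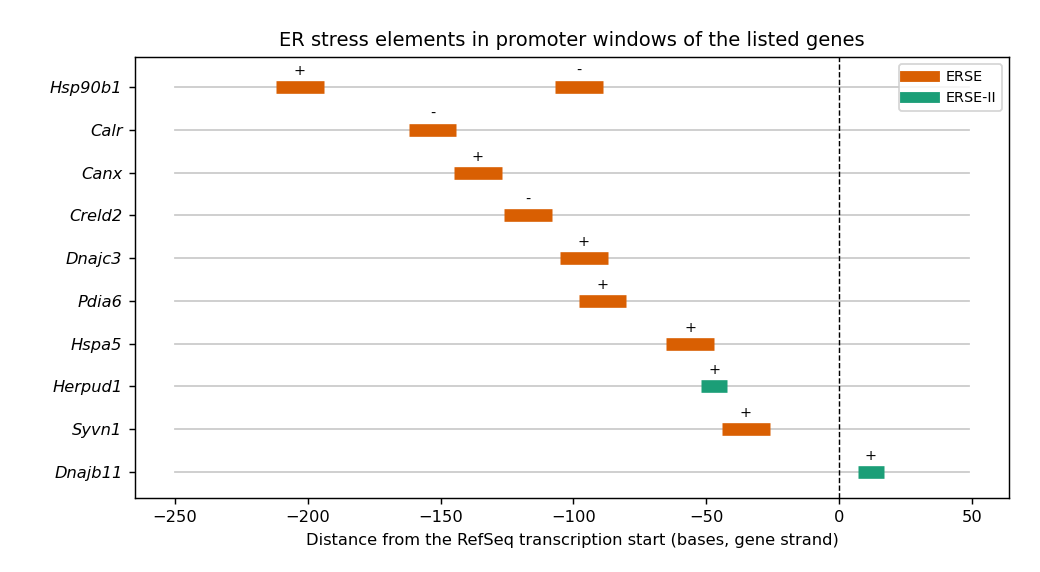
Position of ERSE (orange) and ERSE-II (green) matches in the promoter windows, in bases from the RefSeq transcription start along the gene's strand, with the strand of the match above each bar. The ERSE matches lie between 212 bases (Hsp90b1) and 26 bases (Syvn1) before the start, and the ERSE-II of Dnajb11 lies after it.

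Total counts ranged from 16787233 to 18847288 in CD25-high libraries and from 18810599 to 23567066 in CD25-low libraries. The 32 genes took 0.689% to 0.865% of the counts in CD25-high libraries and 0.544% to 0.669% in CD25-low libraries. T cell markers were present in every library, with summed levels of 6 markers of 2506 to 2620 CPM (counts scaled to library size) in CD25-high and 2522 to 3360 CPM in CD25-low libraries. Of 11 B and plasma cell markers, 5 were analysed here, namely Cd79b, Jchain, Sdc1, Ighm and Igkc. Their summed level was 288 to 469 CPM in CD25-high libraries, against 775 to 903 CPM in CD25-low libraries, nearly all of it Ighm. Without Ighm it was 9.42 to 29.3 CPM in CD25-high libraries, against 2.41 to 12.3 CPM in CD25-low libraries, with Igkc at 23.9, 8.68 and 8.57 CPM in CD25-high libraries, against 0.875, 10.4 and 9.80 CPM in CD25-low libraries, and Cd79b at 0 in CD25-high library 2. Jchain, which plasma cells express strongly, reached at most 3.40 CPM, in CD25-high library 1. The part of such cells in the values below was not tested. Markers of myeloid and dendritic cells summed to at most 11.8 CPM in CD25-high libraries, against 10.3 CPM in CD25-low libraries, and Alas2 of the erythroid list reached 2.71 CPM in CD25-high libraries, against 3.34 CPM in CD25-low libraries. Cd8b1 reached 5.33 CPM in CD25-high libraries, against 2.32 CPM in CD25-low libraries.

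No gene of the set passed the main test, which leaves out any pairing of the libraries. By edgeR's quasi-likelihood test at an adjusted p of 0.05, 0 of the 32 genes were higher and 0 lower in CD25-high cells, where 0.154% of the 12987 tested genes were higher and 0.501% lower. The lowest adjusted p among the 32 was 0.259, for Creld2. DESeq2 and limma voom called 0 of them as well, with lowest adjusted p-values of 0.0945 and 0.192. With the replicate number as a block, 1 of the 32, Hsp90b1, passed as higher, where 1.73% of all tested genes did, and 0 as lower, where 2.9% did. At an unadjusted p under 0.05, edgeR gave 6 of the 32 (18.8%) as higher and 0 as lower, where 4.69% and 6.39% of all tested genes were so. DESeq2 gave 7 of the 32 in either direction at that threshold, where 12.5% of all tested genes were so. Under the replicate block, edgeR gave 12 of the 32 in either direction, where 2345 of the 12987 tested genes were so.

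The fold changes of the set lay mostly above 0. Of the 32 genes, 26 (81.2%) had a positive log2 fold change of CD25-high over CD25-low, where 50.8% of all tested genes did. Their median was 0.215, against 0.009 over all tested genes. In 8 of the 32 every CD25-high library lay above every CD25-low library, where 7.41% of all tested genes did so, and in 0 every CD25-high library lay below, where 9.54% did. The 8 are Xbp1, Hsp90b1, Hyou1, Calr, Canx, Creld2, Pdia3 and Ssr1. These counts describe the set, whose members share regulators and libraries and are not independent. In RNA from whole sorted populations, more cells with a transcript and more of it per cell cannot be told apart.

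**Figure D2:**
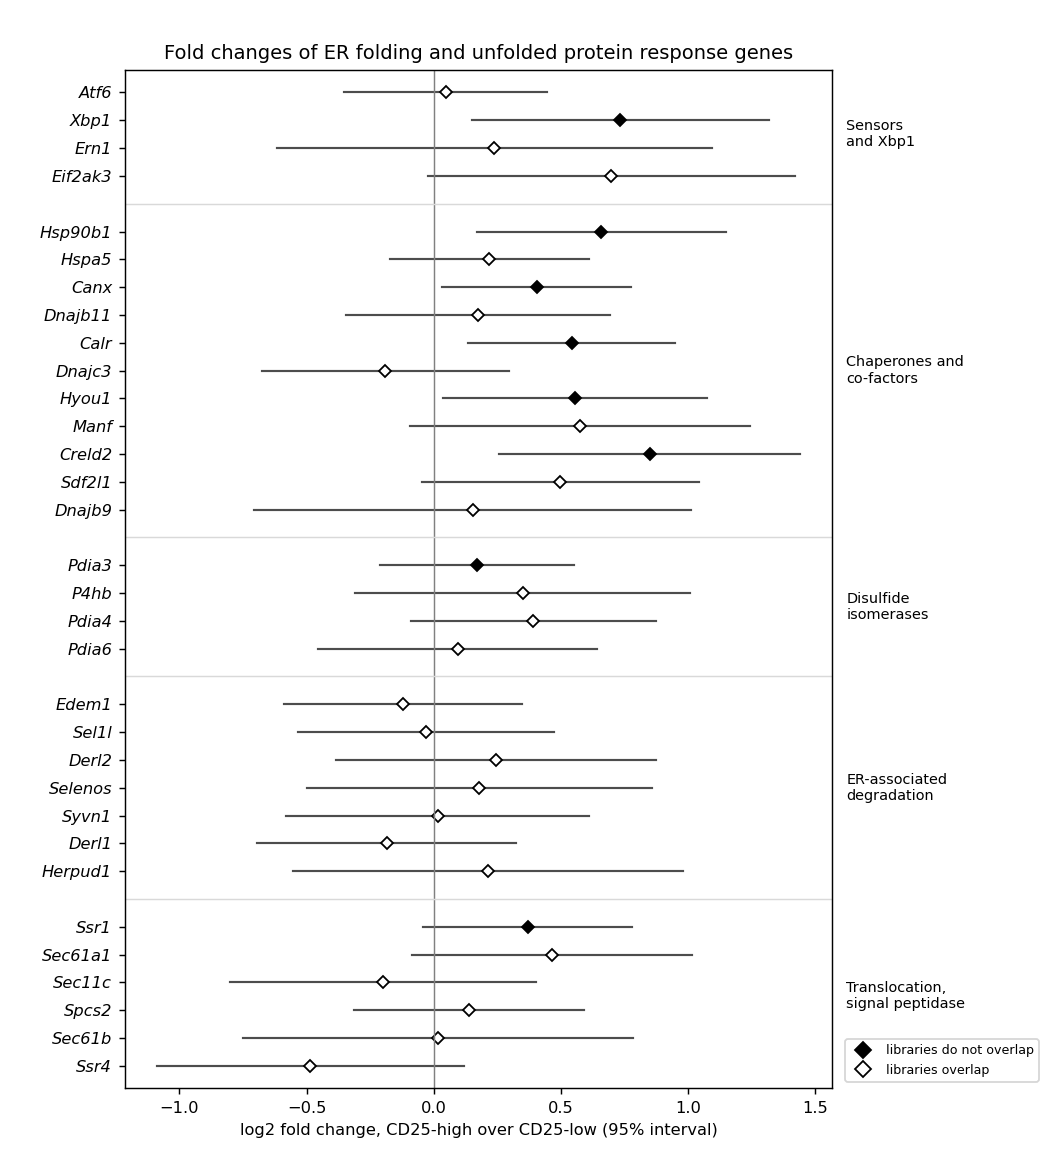
Log2 fold change of CD25-high over CD25-low for each of the 32 genes by role, with its 95% interval from edgeR. Filled diamonds mark the 8 genes whose libraries do not overlap between groups. Only 6 of the intervals lie wholly above 0, before any adjustment for the number of genes tested, and none lies wholly below it.

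Xbp1 had 43.8, 65.2 and 54.6 CPM in the CD25-high libraries, against 24.3, 32.6 and 41.5 CPM in the CD25-low libraries, given here and below in the order of library numbers 1, 2 and 3. Every CD25-high library lay above every CD25-low library, with CD25-high library 1 only just above CD25-low library 3. The log2 fold change of 0.73 ± 0.26 (SE; 95% interval 0.15 to 1.32) had an adjusted p of 0.331 with edgeR. With the replicate block it was 0.0581, so Xbp1 missed the threshold in both fits. Within same-numbered pairs the log2 difference of CD25-high minus CD25-low was 0.85, 1.0 and 0.40. Xbp1 (ENSMUSG00000020484) is on chromosome 11 at 5520659 to 5525893, plus strand.

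Of the sensors, Eif2ak3 (PERK) stood nearest to Xbp1. It had 17.3, 31.0 and 20.0 CPM in CD25-high libraries, against 10.99, 18.5 and 12.6 CPM in CD25-low libraries. Its groups overlapped, since CD25-low library 2 lay above CD25-high library 1, though each pair differed in the same direction, by 0.65, 0.74 and 0.66. With edgeR its log2 fold change of 0.70 ± 0.33 (SE) had an adjusted p of 0.467, and it was 0.416 without CD25-high library 2. Eif2ak3 shares 485 exonic bases with Gm43292 on the opposite strand, which has no counts here. Part of the Eif2ak3 count is therefore uncertain without a stated strand setting. Ern1, the kinase and nuclease that splices Xbp1, had 32.1, 38.1 and 28.3 CPM in CD25-high libraries, against 12.4, 28.0 and 43.0 CPM in CD25-low libraries. Its CD25-low libraries spanned a wider range than the CD25-high ones, and the 95% interval of its log2 fold change ran from -0.62 to 1.09. Of the sensors Atf6 differed least, with 156 ± 14.4 CPM in CD25-high cells, against 151 ± 8.68 CPM in CD25-low cells (mean ± SD, 3 libraries each) and an interval of -0.35 to 0.45.

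Chaperones and their co-factors, 11 of the 32 genes, included 5 of the 8 without overlap, where 7.41% of all tested genes lay so. Of these 11, 10 had positive fold changes, where 50.8% of all tested genes did. The median of the 11 was 0.50 on the log2 scale. Hsp90b1 (GRP94, the HSP90 of the ER, which folds integrins and Toll-like receptors) had 2873, 3023 and 2874 CPM in CD25-high libraries, against 1436, 2471 and 1652 CPM in CD25-low libraries. The CD25-high libraries agreed closely with each other, while CD25-low library 2 stood well above libraries 1 and 3. The log2 fold change of 0.66 ± 0.22 (SE) had an adjusted p of 0.299 with edgeR, and of 0.0178 with the replicate block. The pairs differed by 1.0, 0.29 and 0.80, and with the block the call was lost when pair 1 was left out. Hsp90b1 (ENSMUSG00000020048) is on chromosome 10 at 86690209 to 86705509, minus strand. It shares 415 exonic bases with the pseudogene 1810014B01Rik on the opposite strand, whose count was 12.7% to 14.0% of the Hsp90b1 count, so part of the count is uncertain without a stated strand setting. It also shares 84 and 133 bases with Gm15344 and Gm25745 on its own strand, whose counts were at most 4.13% and 1.39% of its own.

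Creld2, an ER-resident disulfide isomerase-like protein, had the highest fold change of the set. It had 38.8, 54.4 and 75.6 CPM in CD25-high libraries, against 32.5, 32.5 and 28.7 CPM in CD25-low libraries. The CD25-low libraries lay close together and the CD25-high ones were spread, with library 1 nearest to the CD25-low values. Its log2 fold change was 0.85 ± 0.27 (SE; edgeR adjusted p 0.259), and the pairs differed by 0.25, 0.74 and 1.39. The lectin chaperones Calr and Canx, which hold newly made glycoproteins until they are folded, were both without overlap. Calr had 217, 244 and 268 CPM in CD25-high libraries, against 161, 156 and 183 CPM in CD25-low libraries, a log2 fold change of 0.54 ± 0.18 (SE; edgeR adjusted p 0.307). Canx had 780, 725 and 711 CPM in CD25-high libraries, against 572, 577 and 527 CPM in CD25-low libraries, a log2 fold change of 0.40 ± 0.17 (SE; edgeR adjusted p 0.412). The gap between the groups was wider than the range within either group for Canx, and narrower than the range of the CD25-high libraries for Calr.

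Hspa5 (BiP), the HSP70 of the ER that holds the sensors inactive and serves as the usual marker of the response, showed less of a difference. It had 957, 910 and 1036 CPM in CD25-high libraries, against 941, 790 and 764 CPM in CD25-low libraries. The groups overlapped because CD25-low library 1 lay above CD25-high library 2. Its log2 fold change was 0.22 ± 0.18 (SE), and its 95% interval of -0.17 to 0.61 leaves out a doubling. Hyou1, which exchanges the nucleotide of BiP, had 86.2, 83.1 and 120 CPM in CD25-high libraries, against 54.0, 63.1 and 79.5 CPM in CD25-low libraries. All its CD25-high libraries lay above the CD25-low ones, with a log2 fold change of 0.56 ± 0.23 (SE; edgeR adjusted p 0.417).

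The remaining chaperone genes overlapped between groups. Sdf2l1, a partner of BiP, averaged 54.2 ± 10.04 CPM in CD25-high cells, against 38.4 ± 8.32 CPM in CD25-low cells, and Manf, a small ER stress protein, 75.7 ± 31.0 CPM in CD25-high cells, against 50.9 ± 7.96 CPM in CD25-low cells (mean ± SD, 3 libraries each). Manf shares 146 exonic bases with Dcaf1 on the opposite strand, whose count was 150% to 404% of its own. The co-chaperones of BiP differed little. Dnajb11 averaged 244 ± 62.6 CPM in CD25-high cells, against 217 ± 33.7 CPM in CD25-low cells, and Dnajc3 227 ± 51.1 CPM in CD25-high cells, against 259 ± 39.1 CPM in CD25-low cells (mean ± SD, 3 libraries each). Dnajb9, at 7.69 ± 1.52 CPM in CD25-high cells, against 6.90 ± 2.16 CPM in CD25-low cells (mean ± SD, 3 libraries each), was the least abundant gene of the set.

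Among the disulfide isomerases, which form and rearrange disulfide bonds, Pdia3 had 621, 604 and 616 CPM in CD25-high libraries, against 551, 595 and 490 CPM in CD25-low libraries. Its libraries did not overlap, but its log2 fold change was only 0.17 ± 0.17 (SE; 95% interval -0.21 to 0.55). Pdia4 averaged 120 ± 22.9 CPM in CD25-high cells, against 91.8 ± 12.4 CPM in CD25-low cells, P4hb 155 ± 39.3 CPM in CD25-high cells, against 122 ± 49.2 CPM in CD25-low cells, and Pdia6 107 ± 31.1 CPM in CD25-high cells, against 100.5 ± 12.7 CPM in CD25-low cells (mean ± SD, 3 libraries each). All 4 fold changes were positive, where 50.8% of all tested genes had positive ones. Their edgeR adjusted p-values were 0.558 to 0.927.

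Genes of ER-associated degradation, which return misfolded proteins to the cytosol, lay on both sides of 0. Of 7 such genes, 4 had positive and 3 negative fold changes, their median log2 fold change was 0.02, with a range of -0.185 for Derl1 to 0.24 for Derl2. The ubiquitin ligase Syvn1 (HRD1), which shares 91 exonic bases with Mrpl49 on the opposite strand, averaged 40.3 ± 10.04 CPM in CD25-high cells, against 39.9 ± 9.85 CPM in CD25-low cells, and its partner Sel1l 103 ± 17.2 CPM in CD25-high cells, against 105 ± 23.3 CPM in CD25-low cells (mean ± SD, 3 libraries each). Edem1, which selects glycoproteins for degradation, averaged 121 ± 26.7 CPM in CD25-high cells, against 132 ± 5.00 CPM in CD25-low cells (mean ± SD, 3 libraries each). Selenos, of the retrotranslocation complex, had 26.7, 62.9 and 59.3 CPM in CD25-high libraries, against 42.1, 44.1 and 45.4 CPM in CD25-low libraries. CD25-high library 1 lay below all CD25-low libraries there, and libraries 2 and 3 above them. Herpud1, a scaffold of the ligase complex, averaged 12.7 ± 4.38 CPM in CD25-high cells, against 10.98 ± 2.18 CPM in CD25-low cells, and Derl2, which shares 231 exonic bases with Mis12 on the opposite strand, 49.8 ± 14.9 CPM in CD25-high cells, against 42.1 ± 9.36 CPM in CD25-low cells (mean ± SD, 3 libraries each). The count of Mrpl49 was 39.3% to 82.2% of that of Syvn1, and the count of Mis12 was 79.7% to 186% of that of Derl2, so both genes are uncertain without a stated strand setting.

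Translocation and signal peptidase genes also divided, with 4 positive and 2 negative fold changes. Ssr1, a subunit of the translocon-associated complex, had 186, 224 and 213 CPM in CD25-high libraries, against 142, 169 and 171 CPM in CD25-low libraries, without overlap (log2 fold change 0.37 ± 0.19, SE; edgeR adjusted p 0.511). Ssr4, of the same complex, had 16.4, 13.8 and 14.5 CPM in CD25-high libraries, against 24.6, 16.4 and 21.7 CPM in CD25-low libraries. It had the lowest fold change of the set, at -0.485 ± 0.27 (SE; edgeR adjusted p 0.56), in the opposite direction to Ssr1. Sec61a1, the channel of the translocon, averaged 157 ± 13.2 CPM in CD25-high cells, against 114 ± 36.6 CPM in CD25-low cells, and its small partner Sec61b 21.6 ± 4.26 CPM in CD25-high cells, against 21.4 ± 10.03 CPM in CD25-low cells (mean ± SD, 3 libraries each). The signal peptidase subunits Sec11c and Spcs2 differed little: Sec11c averaged 89.9 ± 30.1 CPM in CD25-high cells, against 103 ± 16.4 CPM in CD25-low cells, and Spcs2 84.6 ± 12.7 CPM in CD25-high cells, against 76.8 ± 7.78 CPM in CD25-low cells (mean ± SD, 3 libraries each). Sec61a1 shares 549 exonic bases with Gm44170 on the opposite strand.

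**Figure D3:**
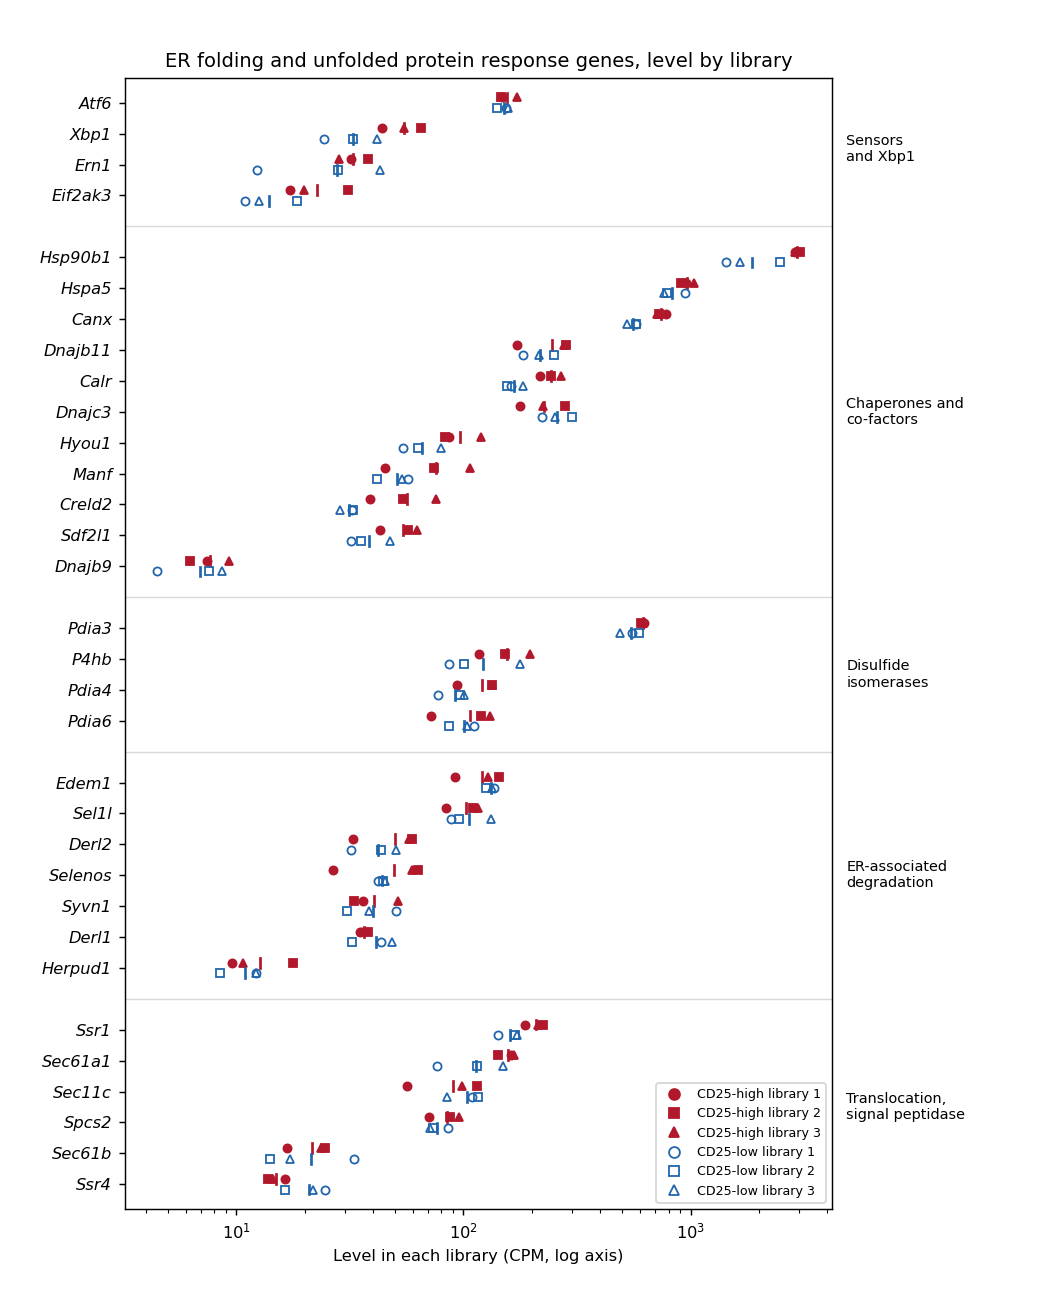
Level of each of the 32 genes in every library, in CPM on a log axis, with CD25-high libraries (red, filled) above CD25-low libraries (blue, open) in each row, symbols for library numbers and short bars for group means. The row means run from 7.69 CPM for Dnajb9 to 2923 CPM for Hsp90b1 in CD25-high cells, and most rows overlap between groups.

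Compared per kilobase of annotated exon, the set spanned a wide range of levels, headed by a few chaperones. Hsp90b1 came first at 725 ± 21.4 CPM per kilobase in CD25-high and 460 ± 136 in CD25-low cells, then in the same unit Hspa5 at 229 ± 15 in CD25-high and 197 ± 22.6 in CD25-low, Pdia3 at 196 ± 2.74 in CD25-high and 174 ± 16.8 in CD25-low, Canx at 157 ± 7.79 in CD25-high and 119 ± 5.88 in CD25-low, and Calr at 84.3 ± 8.90 in CD25-high and 57.9 ± 5.06 in CD25-low cells (mean ± SD, 3 libraries each). In CD25-high cells these 5 were separated from one another, while each of the other 27 neighbours in the order overlapped in their libraries. Xbp1 stood at 16.8 ± 3.30 CPM per kilobase in CD25-high and 10.1 ± 2.65 in CD25-low cells, and Ern1, Eif2ak3 and Dnajb9 were at the foot of the order, at 4.02, 3.77 and 3.02 in CD25-high and 3.40, 2.33 and 2.71 in CD25-low cells. Hsp90b1 alone took 35.1% to 39.0% of the counts of the 32 genes in CD25-high libraries and 25.6% to 36.8% in CD25-low libraries. The summed level of all 32 was 7886 ± 453 CPM in CD25-high cells, against 6075 ± 571 CPM in CD25-low cells, and of the other 31 without Hsp90b1 it was 4962 ± 424 CPM in CD25-high cells, against 4222 ± 51.7 CPM in CD25-low cells (mean ± SD, 3 libraries each). Both sums were higher in each CD25-high library than in any CD25-low library.

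Library 1 most often held the lowest value within both groups. CD25-high library 1 held the lowest CD25-high value for 22 of the 32 genes, libraries 2 and 3 for 8 and 2. CD25-low library 1 held the lowest CD25-low value for 16, libraries 2 and 3 for 10 and 6. Mitochondrial ribosomal RNA took 34%, 32.1% and 29.3% of the counts in CD25-high libraries, against 35.3%, 33.1% and 31.7% in CD25-low libraries. It was highest in library 1 of each group and lower in CD25-high in every pair, and its part in the values of the set was not tested. In pairs of the same number, 15 genes were higher in CD25-high in all 3 pairs and 2, Dnajc3 and Ssr4, lower in all 3. The share of all tested genes that did so was not counted, so these counts are not read as a result about the set. Without CD25-high library 1 the median log2 fold change of the set was 0.368 and 29 of the 32 fold changes were positive, and still 0 of the 32 genes were called. Without CD25-high library 3 the median was 0.165 and 22 were positive.

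Xbp1 was set beside genes of IL-2 signalling, because of its place among cytokine targets. Il2ra, the sort marker, had 1536, 432 and 666 CPM in CD25-high libraries, against 20.7, 29.4 and 35.7 CPM in CD25-low libraries, so CD25-high library 1 held the most Il2ra and the least Xbp1 of its group. Cish, a feedback inhibitor raised by STAT5, had 15.9, 4.85 and 4.57 CPM in CD25-high libraries, against 0.438, 1.36 and 0.165 CPM in CD25-low libraries. Its order within the CD25-high group was that of Il2ra in having library 1 highest, and not that of Xbp1. Its log2 fold change of 3.67 ± 0.81 (SE) had an adjusted p of 0.0939 with edgeR, and of 0.00621 with the replicate block. Prdm1 had 214, 226 and 251 CPM in CD25-high libraries, against 51.7, 64.6 and 97.4 CPM in CD25-low libraries, and rose (log2 fold change 1.69 ± 0.25, SE; edgeR adjusted p 0.0159). CD25-high library 1 was also lowest of its group for Prdm1, Il2rb and Socs2, and highest for Irf4, Myc and Ccnd2. In the CD25-low group Xbp1, Il2ra, Il2rb, Socs2 and Prdm1 were all lowest in library 1 and highest in library 3. Of the other listed genes of IL-2 signalling, Il2rg and Bcl2 shared this order. Ccnd2 ran the other way in CD25-low libraries, with 63.8, 54.6 and 42.9 CPM. Irf4, Myc, Stat5a and Stat5b were highest in CD25-low library 1, and Cish and Il4ra were lowest in CD25-low library 3. Whether Xbp1 follows any of these genes across libraries was not tested.

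Of the 13 genes in this list of IL-2 signalling, Il2ra, Socs2, Prdm1 and Ccnd2 rose, 0 fell and 9 did not pass, where 0.154% of all tested genes rose. Il2ra encodes the protein the groups were sorted on, so its rise is no finding. With the replicate block 8 of the 13 rose, where 1.73% of all tested genes did. The 4 that passed with the block alone were Cish, Il2rb, Irf4 and Myc. Il2rb, the signalling chain shared with the IL-15 receptor, had 448, 540 and 551 CPM in CD25-high libraries, against 177, 244 and 372 CPM in CD25-low libraries. Its libraries did not overlap, and its edgeR adjusted p was 0.184, and 0.00327 with the block. Irf4, a T cell receptor-induced factor that acts with Blimp-1 and XBP1 in plasma cells, had 418, 199 and 210 CPM in CD25-high libraries, against 172, 116 and 158 CPM in CD25-low libraries (edgeR adjusted p 0.301, and 0.0176 with the block). Without CD25-high library 1 the log2 fold change of Irf4 was 0.462, against 0.89 with all libraries. Myc had 284, 49.7 and 75.7 CPM in CD25-high libraries, against 90.6, 33.3 and 56.2 CPM in CD25-low libraries. Its groups overlapped, and its log2 fold change of 1.19 ± 0.58 (SE; edgeR adjusted p 0.496, and 0.0401 with the block) was 0.064 without CD25-high library 1. With the block and pair 1 left out, Cish, Irf4 and Myc were not called (adjusted p 0.0958, 0.0943 and 0.186). The remaining genes, Il2rg, Il4ra, Stat5a, Stat5b and Bcl2, had log2 fold changes of -0.28, -0.20, -0.61, -0.17 and -1.14 and passed in neither fit. The genes called in the main test had log2 fold changes of 1.69 to 4.94, the highest being that of the sort marker Il2ra. They were picked by the test, so large values among them follow from the choice. In the same fit Il2rb, Irf4, Myc and Cish, called with the block alone, had 0.96, 0.89, 1.19 and 3.67. The value for Xbp1 was 0.73.

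**Figure D4:**
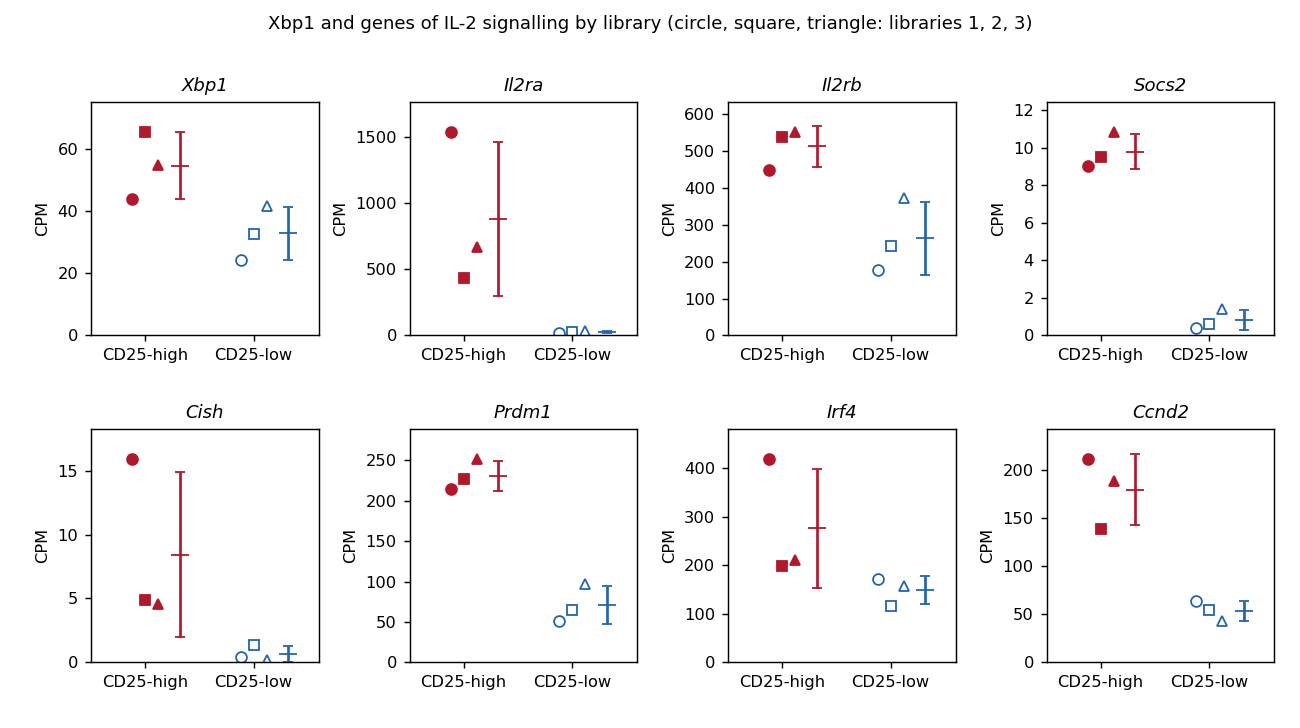
Level in CPM of Xbp1 and 7 genes of IL-2 signalling in CD25-high (left, red, filled) and CD25-low (right, blue, open) libraries, with symbols for library numbers and a bar for the mean and SD (n = 3 each). The 7 are those of the 13 listed genes whose CD25-high libraries all lay above the CD25-low ones, so their lack of overlap follows from this choice. Of all tested genes, 7.41% lay so. In 1 of the 13, Stat5a, all CD25-high libraries lay below, and the genes not named here overlapped. CD25-high library 1 (circle) is lowest of its group for Xbp1, Il2rb, Socs2 and Prdm1 and highest for Il2ra, Cish, Irf4 and Ccnd2.

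Genes known in mouse cells to need XBP1 under ER stress were looked at beside Xbp1. This choice was made after their values were seen and is not a full list of such genes. All 32 genes had a median log2 fold change of 0.215, with 26 positive and 6 negative. The 5 chosen genes therefore do not stand for the set, and their values are not read as a measure of XBP1 activity. Dnajb9, Dnajb11, Dnajc3, Edem1 and Pdia6 had log2 fold changes of 0.15, 0.17, -0.19, -0.12 and 0.09. Their libraries overlapped between groups in all 5, and the intervals of 4 of them, all but Dnajb9, lay within 1 log2 unit of 0. The interval of Dnajb9 ran from -0.705 to 1.013. Over the whole set, the intervals of 20 of the 32 genes lay within 1 log2 unit of 0, and for the other 12 a doubling or halving is not left out at this depth and number of libraries.

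The genes with an ERSE in their window lay mostly above 0, and so did those with a window and no ERSE. Of the 8, 7 had positive fold changes and 4 (Hsp90b1, Calr, Canx and Creld2) had no overlap between groups, with a median log2 fold change of 0.31 and a range of -0.19 for Dnajc3 to 0.85 for Creld2. Of the 18 others with a window, 15 had positive fold changes and 3 (Xbp1, Pdia3 and Ssr1) had no overlap, with a median of 0.195. Of the 6 without a window, 4 had positive fold changes and 1 (Hyou1) had no overlap, with a median of 0.256. Of all tested genes, 50.8% had positive fold changes, and in 7.41% every CD25-high library lay above every CD25-low library. The difference between the genes with and without an ERSE was not tested.

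The rest of the ER pathway was read from 6 further lists with 87 tested genes of 91 listed. None passed edgeR's test in either direction. At an unadjusted p under 0.05, 5 were higher and 2 lower, where 4.69% and 6.39% of all tested genes were. The share of higher genes at this threshold was near that of all genes. In 13 of the 87 every CD25-high library lay above every CD25-low library, where 7.41% of all tested genes did so. In 5 every CD25-high library lay below, where 9.54% did. With the replicate block 1 rose, where 1.73% of all tested genes did, and with DESeq2 2 rose, where 0.847% did. The median log2 fold change was 0.05. The genes nearest to a call both belong to transport between ER and Golgi and encode receptors that return escaped KDEL-tagged chaperones to the ER. Kdelr1 had 28.6, 17.5 and 18.2 CPM in CD25-high libraries, against 9.30, 8.60 and 11.7 CPM in CD25-low libraries (log2 fold change 1.12 ± 0.31, SE; adjusted p 0.186 with edgeR, 0.0562 with the block and 0.0316 with DESeq2). Kdelr2 had 42.6, 54.3 and 48.7 CPM in CD25-high libraries, against 31.9, 26.6 and 24.7 CPM in CD25-low libraries (0.81 ± 0.22, SE; adjusted p 0.186 with edgeR, 0.0486 with the block and 0.0414 with DESeq2). In neither gene did the groups overlap, while Kdelr3, the third receptor, was chosen after its values were seen and had 5.12 ± 1.57 CPM in CD25-high cells, against 6.997 ± 1.95 CPM in CD25-low cells (mean ± SD, 3 libraries each).

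By list, the 16 ER to Golgi genes had a median log2 fold change of 0.16, with 10 positive. All 11 N-glycosylation genes had positive fold changes, with a median of 0.22, where 50.8% of all tested genes had positive ones. Rpn1, a subunit of the oligosaccharyltransferase (0.52 ± 0.20, SE), and Ost4 (0.39 ± 0.23, SE) had the smallest p-values there, with edgeR adjusted p-values of 0.375 and 0.581. The 17 targeting and translocation genes had a median of 0.045, with Srprb, of the signal recognition particle receptor (0.67 ± 0.30, SE), and Srp68, of the particle itself (0.44 ± 0.21, SE), nearest to a call. The 17 further folding genes had a median of 0.08. Ero1l, the oxidase that recharges the disulfide isomerases, had a log2 fold change of 0.58 ± 0.22, and Sdf2, a relative of Sdf2l1, one of -1.095 ± 0.38 (SE; edgeR adjusted p 0.364 and 0.318). The 14 further degradation genes had a median of -0.13, with Ufd1 at -0.40 ± 0.21 and Erlec1 at -0.49 ± 0.29 (SE). The 12 further regulators had a median of -0.10. Mbtps1, the Golgi protease that cleaves ATF6, had 32.6, 30.8 and 30.9 CPM in CD25-high libraries, against 48.8, 42.4 and 46.6 CPM in CD25-low libraries, without overlap (-0.55 ± 0.21, SE; edgeR adjusted p 0.356). Ddit3 (CHOP), the death-linked factor of the PERK branch, had 12.9, 8.63 and 12.0 CPM in CD25-high libraries, against 7.66, 5.75 and 8.23 CPM in CD25-low libraries (0.63 ± 0.34, SE; edgeR adjusted p 0.549).

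**Figure D5:**
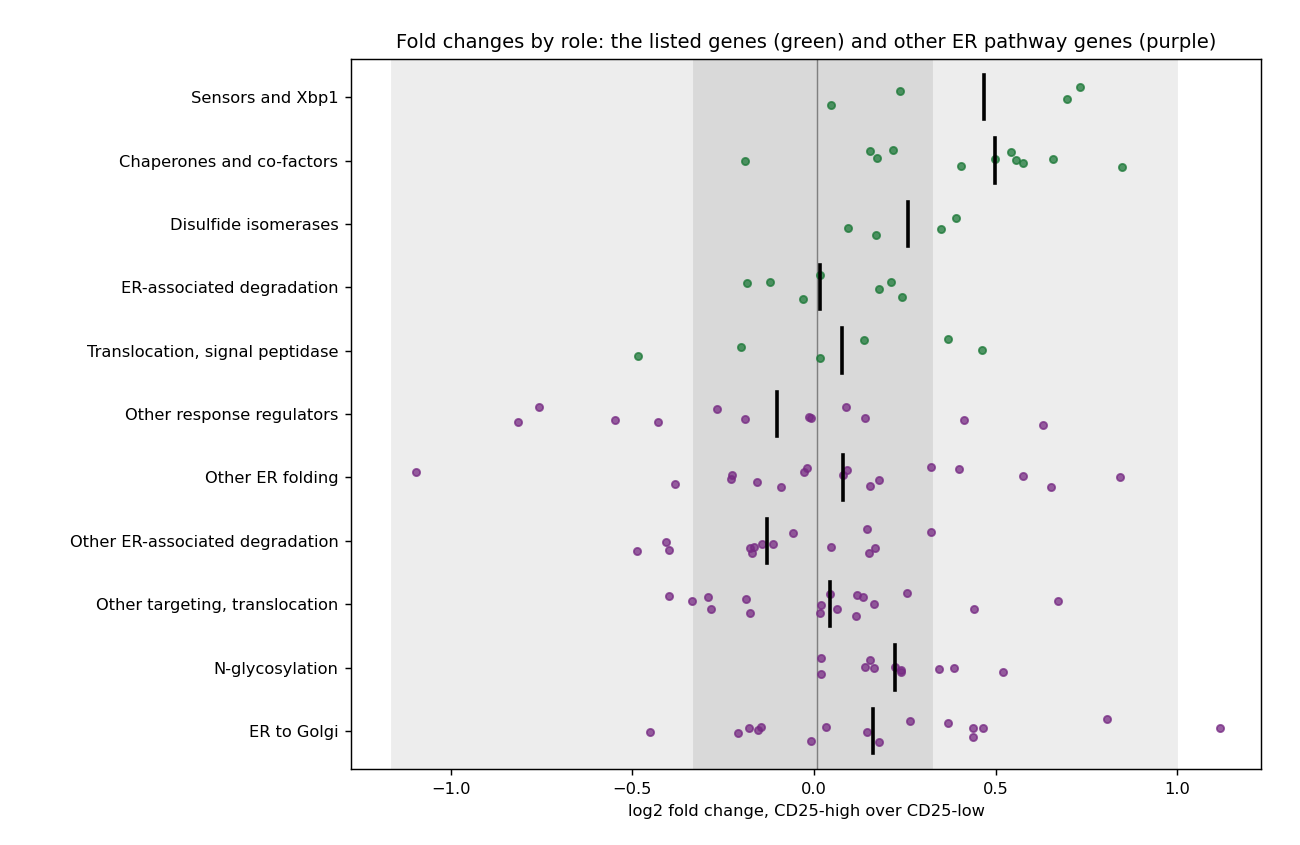
Log2 fold change of CD25-high over CD25-low for each tested gene by role, for the 32 genes (green) and 87 other ER pathway genes (purple), with black bars at list medians. Grey bands span the middle 50% (dark, -0.33 to 0.32) and 90% (light, -1.16 to 1.0) of all tested genes, and of the points shown only Kdelr1, at 1.12, lies outside the light band.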

How the data were processed

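Whole-number raw counts of reads per Ensembl gene were deposited for 6 libraries. Per the labels' protocols, libraries were made from total RNA with a NuGEN Ovation v2 kit. The submitters' processing notes list Novoalign and DESeq2, and as builds hg19 and mm10, with no role. The sources used here do not give the counting tool, annotation, strand setting or handling of reads with several matches. The smallest row total is 10. Identifiers were named through GENCODE M21 (GRCm38, the assembly of mm10), which matched 15169 of 15445.

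In R 4.3.3, edgeR 4.0.16 fitted the counts with TMM factors and group as the only term, and its quasi-likelihood F test was used. A default filterByExpr (count at least 10, total at least 15) left 12987 genes. P-values were adjusted over all tested genes by the Benjamini-Hochberg method. SE is the size of the log2 fold change divided by the root of F, and 95% intervals use the degrees of freedom of the test. CPM uses TMM-adjusted library sizes. Levels per kilobase use the merged exons of a gene. Fold changes are CD25-high over CD25-low. The fits were tested on simulated data. Alternatives were DESeq2 1.42.0, limma 3.58.1 voom, other factors and filters, removal of mitochondrial and the 50 most abundant genes, the replicate number as a block, and libraries or pairs left out.

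Over the 2000 most variable genes, the deviations from group means of libraries with the same number correlated at 0.34, 0.19 and 0.16, each above the limit of 0.1, and those of differently numbered libraries at -0.26 to 0.13. The highest of the latter, CD25-high library 2 with CD25-low library 3, was above the limit too. Each same-numbered value was higher still, and the numbers were taken to pair the libraries. This pairing rests on the correlations alone, since no label says so. Deviations from a group mean cancel out within the group, so these correlations depend on one another and are weak ground for a pairing. The pairing enters the differences within pairs and the replicate block, while the main fit, its SEs and its intervals leave it out. Replicates differed by a chi-square per degree of freedom of 26.0 to 91.6, so none repeats another. The labels give no batch.

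The 32 genes and the further lists were chosen with earlier results of these data known. Named are all 32, the IL-2 signalling list, and from each further list the called genes or the 2 with the smallest p.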

Additional observations from a re-analysis of the deposited data

How the results depend on the processing

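Of the 32 genes, 0 were called lower under any of the 17 alternatives. The count called higher was 0 with RLE or upper-quartile factors, no filter, the stricter filter, DESeq2, limma voom, removal of mitochondrial and the 50 most abundant genes, which also removes Hsp90b1, and any single library left out. It was 1 with the replicate block, and 1 to 2 with the block and a pair left out (Manf and Creld2 without pair 1, adjusted p 0.0241 and 0.0334, and Hsp90b1 without pair 2 or 3, adjusted p 4.64e-05 and 0.034). The median log2 fold change of the set was 0.201 to 0.232 with all libraries and 0.165 to 0.368 with a library or pair left out. Of the further ER genes, 2 were called with DESeq2, 1 with the replicate block and 0 to 2 with libraries or pairs left out. Of all genes, 85 were called in the main test, 376 with DESeq2, 601 with the replicate block, 22 to 130 with a library left out, and 461, 486 and 536 with the block and pair 1, 2 or 3 left out. The cause of these differences was not tested. No other scaling, filter or tool turned a direction. Leaving out a library or pair turned that of 12 of the 32 genes and of Il4ra, with adjusted p-values of at least 0.818 where it turned. With a library left out, log2 fold changes ran from -0.114 to 0.701 for Ern1, -0.023 to 0.093 for Atf6, -0.077 to 0.348 for Dnajb9, -0.066 to 0.314 for Pdia6, -0.102 to 0.377 for Herpud1, -0.198 to 0.218 for Syvn1, -0.141 to 0.161 for Sel1l, -0.256 to 0.047 for Edem1, -0.029 to 0.479 for Selenos, -0.212 to 0.462 for Sec61b, -0.416 to 0.047 for Sec11c and -0.769 to 0.064 for Il4ra. For 9 more of the 32 genes a library left out moved the value by over 1.5 times with no turn, over ranges of 0.416 to 0.947 for Eif2ak3, 0.242 to 0.839 for Manf, 0.247 to 0.715 for Sec61a1, 0.155 to 0.725 for P4hb, 0.082 to 0.473 for Derl2, 0.057 to 0.373 for Dnajb11, 0.099 to 0.237 for Pdia3, -0.338 to -0.057 for Derl1 and -0.362 to -0.039 for Dnajc3. With the block, the values that turned without pair 1 were -0.083 for Ern1, -0.083 for Dnajb9, 0.006 for Sel1l, 0.065 for Edem1 and 0.095 for Sec11c. Those that turned without pair 2 were -0.158 for Pdia6, -0.273 for Herpud1, -0.035 for Syvn1, -0.14 for Selenos, -0.271 for Sec61b and 0.133 for Il4ra. Those that turned without pair 3 were -0.073 for Pdia6, -0.186 for Syvn1, 0.067 for Sel1l, -0.062 for Selenos, -0.08 for Sec61b and -0.01 for Spcs2. Prdm1 and Socs2 were no longer called when CD25-high library 2, CD25-high library 3 or CD25-low library 2 was left out (adjusted p up to 0.121 for each), nor was Ccnd2 when CD25-high library 3, CD25-low library 2 or CD25-low library 3 was (up to 0.0917). With 3 libraries a group, the median SE of the 32 log2 fold changes was 0.247.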
